A study of Mus musculus with 16 samples.

Results

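The miRNAs of the mouse region that corresponds to human 22q11, the segment deleted in 22q11 deletion syndrome, were followed on arrays of the lateral ventricle (LV) wall. Members were the array entries named mmu-miR-185-5p, mmu-miR-185-3p, mmu-miR-1306-5p or mmu-miR-1306-3p, which gave 4 of the 1881 mature mouse miRNAs on the array. The rule names miRNAs by their genome position and sets no threshold on a measured value. Of the 4 miRNAs, only miR-185-5p was detected in the LV walls of all 16 mice. It was lower in Dgcr8+/- mice by 27.9% after quantile normalization, which gives each array the same distribution of signals. The log2 fold change was −0.47 on that scale and −1.0 without normalization. MiR-185-3p and miR-1306-5p were detected in 0 mice, and miR-1306-3p in 1 mouse.

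A miRNA is made from a hairpin in a longer transcript. Dgcr8 is the RNA-binding partner of the nuclease Drosha, and together they cut the hairpin out; Dicer then trims it to a duplex whose arms are named 5p and 3p. MiR-185 is known from mouse models of 22q11 deletion, where it was studied for its targeting of the calcium pump Serca2 at hippocampal synapses.

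The groups were 8 WT mice and 8 Dgcr8+/- littermates on a C57BL/6J background, all male and 8 months old, with 1 mouse per array. Dgcr8+/- mice carry 1 inactivated allele of Dgcr8 in every cell of the body. The LV wall was dissected, so it holds ependymal cells together with neurons, glia, vessels and blood. RNA from each LV wall (100 ng) was hybridised to a 1-colour Agilent array, on which every member has 2 probes of 15 spots each.

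In the RefSeq gene table for GRCm38.p6, Mir185 lies within Tango2 on chromosome 16, and Mir1306 lies within Dgcr8. The hairpins are 43083 bases apart. Mir185 is thus outside the gene that the genotype label names, whereas Mir1306 is inside it. Whether the inactivated Dgcr8 allele still gives rise to the miR-1306 hairpin is not stated in the sources used here. An mRNA for Dgcr8 is not on a miRNA array, so the genotype labels could not be checked against the targeted gene.

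The RefSeq sequences are shown 5′ to 3′ because the arms of 1 hairpin gave different signals. Of the 4 members, 3 matched a mature entry; all lie on the minus strand of GRCm38.p6. In the mature sequences the capitals mark the seed, bases 2 to 8, which pairs with target mRNAs. The positions are chr16:18327405-18327425 for miR-185-3p, chr16:18284288-18284310 for miR-1306-5p and chr16:18284248-18284268 for miR-1306-3p. In the hairpin sequences the capitals mark the mature arms that have an entry, and the hairpins lie at chr16:18327401-18327465 for Mir185 and chr16:18284239-18284317 for Mir1306.
miR-185-3p: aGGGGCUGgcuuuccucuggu
miR-1306-5p: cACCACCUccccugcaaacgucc
miR-1306-3p: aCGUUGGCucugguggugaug
Mir185 hairpin: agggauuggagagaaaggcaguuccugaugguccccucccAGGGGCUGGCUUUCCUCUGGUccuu
Mir1306 hairpin: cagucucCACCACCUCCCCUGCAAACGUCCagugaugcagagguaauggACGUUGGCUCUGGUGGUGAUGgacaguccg

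The seeds of the 3 matched members differ from one another. Among the other miRNAs of the array with a mature entry, 0 shared the seed of miR-1306-5p or miR-1306-3p, and 1 shared that of miR-185-3p. This was miR-7048-5p, which was detected on 16 arrays and differed between genotypes by 0.17 on the log2 scale (standard error 0.10), which did not pass the test (limma, adjusted p = 0.133). Without normalization its difference was −0.19 (limma, adjusted p = 0.0990).

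Across the series, the scanner software called 1316 of the 1881 miRNAs (70.0%) detected on no array. Genotypes were compared for the 495 miRNAs that were detected on 8 arrays or more. The median log2 signal of these 495 before normalization between arrays was lower in Dgcr8+/- mice by a mean of −0.33 (2-sided exact permutation test, p = 0.00171), and the number of detected miRNAs was 495 to 540 in WT and 467 to 492 in Dgcr8+/- mice. By the same test, spike-in RNAs that went through labelling differed by −0.0068 (p = 0.949 by exact permutation), and those for hybridisation by −0.35 (p = 0.0597 by exact permutation). Arrays lay on 2 slides, slide 1 with 6 WT and 2 Dgcr8+/- arrays and slide 2 with 2 WT and 6 Dgcr8+/- arrays.

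MiR-185-5p, the only member that passed the detection filter, is the arm of the Mir185 hairpin for which a signal was measured in every mouse. All of its 480 spots over the 16 arrays had a signal significantly above background and well above background by the software's calls. Before normalization between arrays, its mean spot signal in WT mice was 264 at the lowest, 309 at the median and 420 at the highest signal units. In Dgcr8+/- mice it was 104, 173 and 206 signal units. The groups did not overlap, and every Dgcr8+/- LV wall was dimmer than every WT LV wall. Without normalization limma called 293 of the 495 tested miRNAs lower and 0 higher, so a fall on this scale was common. The software's own error estimate for the total signal of this miRNA was 7.27% to 7.54% of the signal on each array, which covers the measurement on 1 array and not the spread between mice.

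**Figure D1:**
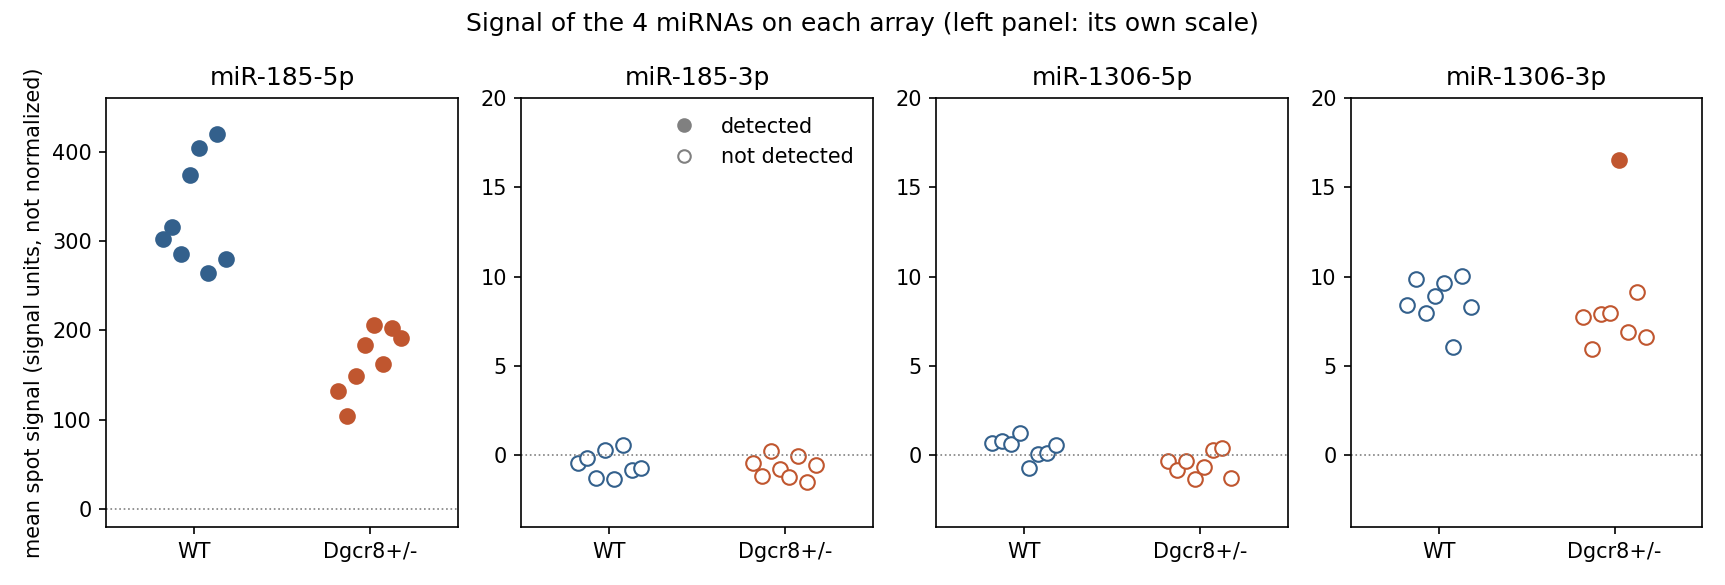
Mean spot signal of the 4 miRNAs on each array before normalization between arrays (y axis, signal units; the panel of miR-185-5p has its own scale), with 1 point per mouse, WT in blue and Dgcr8+/- in orange, filled where the software called the miRNA detected. MiR-185-5p lies between 104 and 420 signal units on every array, miR-185-3p and miR-1306-5p lie around 0, and miR-1306-3p is detected on 1 Dgcr8+/- array at 16.5 signal units.

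Quantile normalization gives each array the same distribution of signals, so that a level is read against the rest of its array. On this log2 scale, miR-185-5p was 8.03 at the lowest, 8.11 at the median and 8.26 at the highest in WT mice, and 7.42, 7.68 and 7.79 in Dgcr8+/- mice. Again no Dgcr8+/- mouse reached the lowest WT mouse. Group means were 8.12 ± 0.07 (SD, n = 8 mice) and 7.64 ± 0.13 (SD, n = 8 mice). The log2 fold change was −0.47 (limma, standard error 0.05, 95% confidence interval −0.59 to −0.36), with a p of 2.89e-06 after Benjamini-Hochberg adjustment over 495 miRNAs. On the linear scale this is a change of −27.9%, with an interval from −33.5% to −21.9%. The exact permutation test of the group means gave p = 0.000155 (2-sided), the smallest p that 8 mice against 8 allow. In bulk tissue, fewer cells that hold a miRNA and less of it per cell cannot be told apart.

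**Figure D2:**
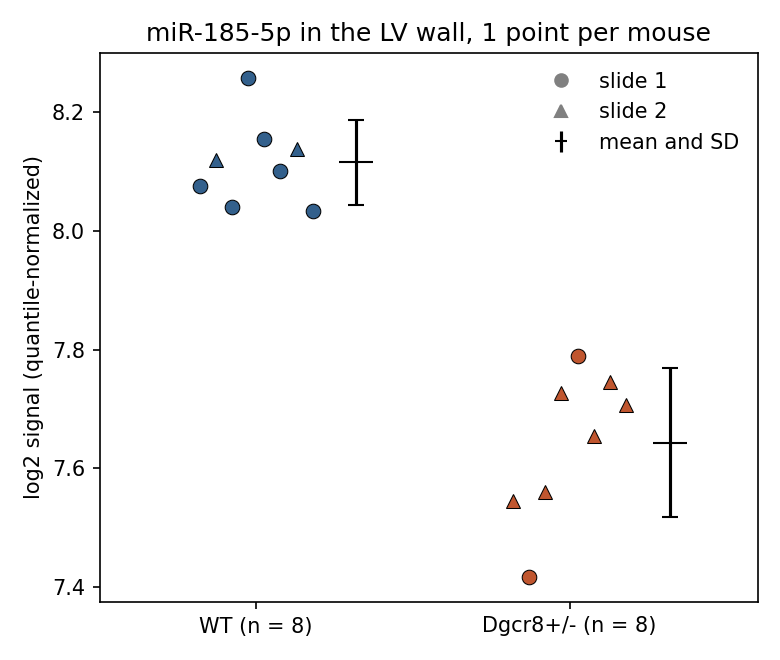
Quantile-normalized log2 signal of miR-185-5p (y axis) in WT and Dgcr8+/- mice, with 1 point per mouse, the marker showing the slide, and the mean and SD beside each group. WT mice lie between 8.03 and 8.26 and Dgcr8+/- mice between 7.42 and 7.79, without overlap on either slide.

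A lower signal was not particular to miR-185-5p on these arrays. Of the 495 tested miRNAs, limma called 138 lower in Dgcr8+/- mice, which is 27.9% of them, and 140 higher, which is 28.3% (adjusted p below 0.05). This even split depended on the scaling, since limma called 293 lower and 0 higher without normalization, 264 and 0 with labelling spike-in scaling, and 276 and 0 with the deposited table. All Dgcr8+/- mice lay below all WT mice for 17.2% of the tested miRNAs, miR-185-5p among them. With the study's own cut-offs (p below 0.05 before adjustment and a fall of more than 0.4 on the log2 scale), 18% of the tested miRNAs were lower, again with miR-185-5p among them. There were 72 tested miRNAs with a more negative log2 fold change and 24 with a smaller p. The median log2 fold change was −0.48 over the 138 lower miRNAs and 0.04 over all 495, with quartiles of −0.27 and 0.27. The fall of miR-185-5p was therefore near the middle of the miRNAs that fell.

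**Figure D3:**
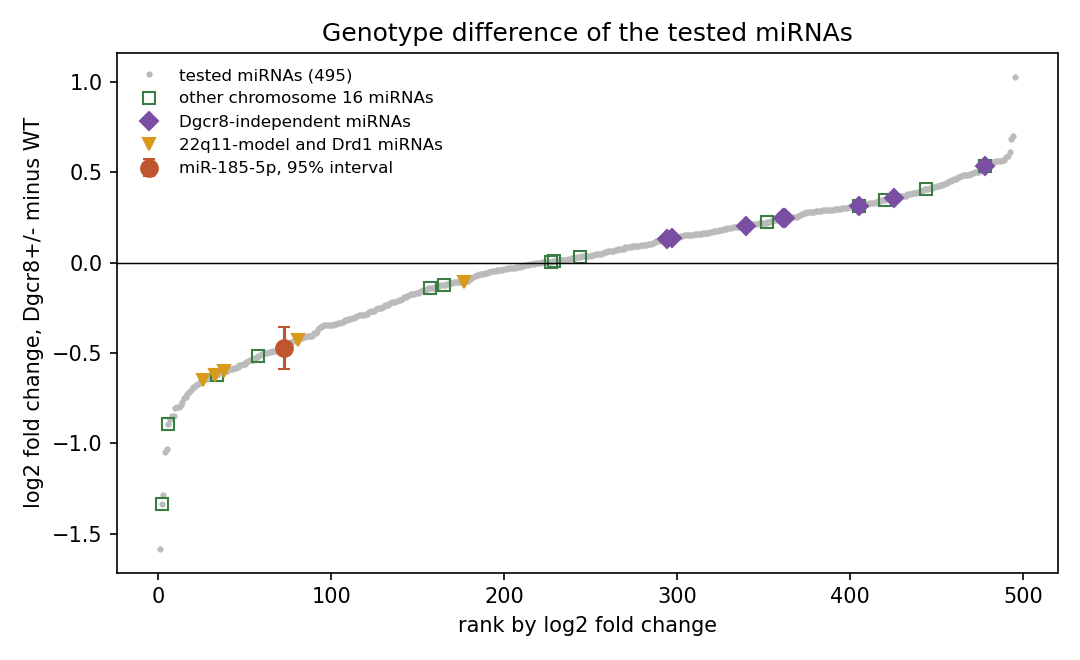
Log2 fold change, Dgcr8+/- minus WT, of the 495 tested miRNAs (y axis) in order of size (x axis, rank), with miR-185-5p and its 95% confidence interval in orange and the members of 3 miRNA lists marked. MiR-185-5p, at −0.47, has 72 tested miRNAs below it. All 8 tested Dgcr8-independent miRNAs lie above 0 on this normalized scale, as does the median of 0.04 over all 495, and 5 of the 8 were called higher. Without normalization the median of these 8 was −0.14, beside −0.39 over all tested.

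The 2 probes of miR-185-5p measured it separately. The first probe had a log2 fold change of −0.49 and the second −0.46 (exact permutation test, p = 0.000155 for each). On the log2 scale the second probe was brighter than the first by 0.66 ± 0.02 (SD, n = 8) in WT and 0.69 ± 0.10 (SD, n = 8) in Dgcr8+/- mice. This gap differed between genotypes by 0.03 (exact permutation test, p = 0.396), so a difference between the probes in their response was not detectable. Replicate spots of a probe on 1 array scattered by a median SD of 0.0994 log2 units for the first probe and 0.108 for the second.

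MiR-185-5p was lower on both slides. Its log2 signal on slide 1 was 8.03 to 8.26 in WT and 7.42 to 7.79 in Dgcr8+/- mice, a difference of the means of −0.51. On slide 2 it was 8.12 to 8.14 in WT and 7.54 to 7.75 in Dgcr8+/- mice, a difference of −0.47. With the slide as a block in limma, the log2 fold change was −0.49 (adjusted p = 1.83e-05).

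The size of the fall depended on whether the arrays were brought to a common distribution. Without normalization between arrays, the log2 fold change of miR-185-5p was −1.0 (adjusted p = 7.73e-06 from limma), and the median over the 495 tested miRNAs was then −0.39. Relative to that median, miR-185-5p stood at −0.61, against −0.51 after quantile normalization. With the labelling spike-ins as the reference, the difference was also −1.0 (exact permutation test, p = 0.000155). With the hybridisation spike-ins as the reference it was −0.65 (exact permutation test, p = 0.00979), and the groups overlapped on that scale. WT replicate 6 and Dgcr8+/- replicate 2 had the highest and the lowest hybridisation spike-ins, and without these arrays the log2 fold change after quantile normalization was −0.44 (adjusted p = 2.98e-06 from limma).

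**Figure D4:**
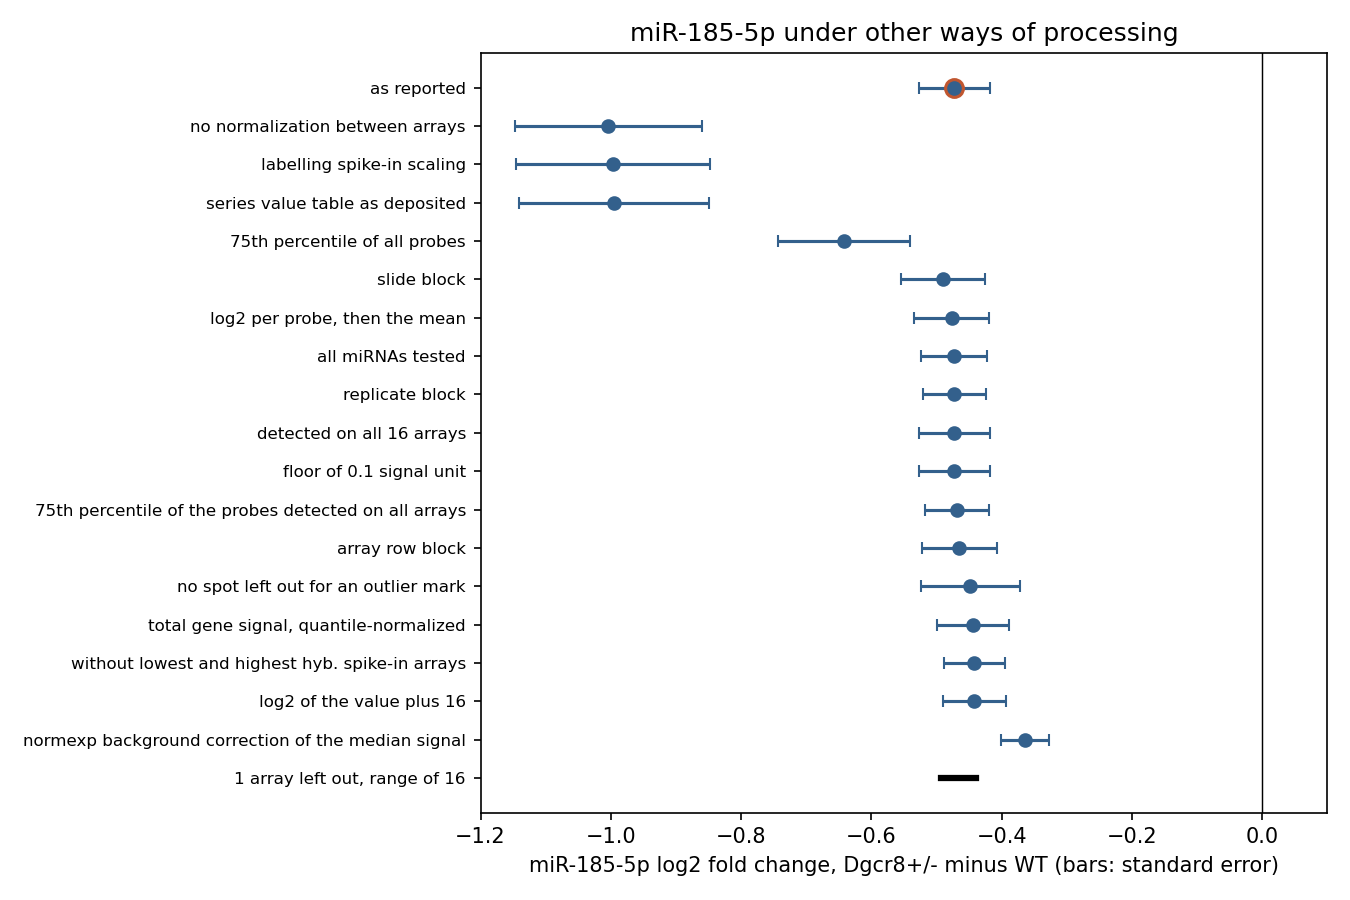
Log2 fold change of miR-185-5p (x axis; bars are the standard error) as reported and under each other way of processing (y axis), with the range over the 16 fits that each leave 1 array out as a black line. The values run from −1.0 without normalization between arrays to −0.36 with the normexp background correction, all below 0.

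Ratios within an array need no normalization between arrays. MiR-320-3p and miR-484 are made without Dgcr8, from hairpins cut by Dicer alone, and were set against miR-185-5p after their values had been seen. The log2 signal of miR-185-5p minus that of miR-320-3p was 1.91 to 2.20 in WT and 0.80 to 1.42 in Dgcr8+/- mice, a difference between genotypes of −0.84 (exact permutation test, p = 0.000155). Minus miR-484 it was 2.01 to 2.45 in WT and 1.1 to 1.56 in Dgcr8+/- mice, a difference of −0.89 (exact permutation test, p = 0.000155). The groups did not overlap for either ratio, nor did they for miR-185-5p alone before normalization, so the ratios add little separate evidence. Ratios to the other tested Dgcr8-independent miRNAs were not made. Without normalization, miR-320-3p itself differed by −0.16 (exact permutation test, p = 0.0499) and miR-484 by −0.11 (exact permutation test, p = 0.290).

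MiR-185-3p, the other arm of the hairpin, was detected in 0 of 16 LV walls. Its mean spot signal was −1.30 at the lowest, −0.57 at the median and 0.57 at the highest in WT mice, and −1.49, −0.64 and 0.24 in Dgcr8+/- mice. The groups overlapped and lay around 0, the level of the subtracted background. The means differed by −0.19 signal units (exact permutation test, p = 0.565). Of its 480 spots, 35 (7.29%) were significantly above background and 1 was well above background. Among 6400 spots of negative control probes on the same arrays, 2302 (36.0%) were significantly above background and 28 (0.438%) well above. No level can be given for this arm, and a comparison of the arms' responses to the genotype could not be made. A single tested arm was common on these arrays. Among 723 miRNA names with both arms on the array, both arms were tested for 80, only the 5p arm for 116, only the 3p arm for 100 and neither for 427.

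MiR-1306-5p, cut from the hairpin inside the Dgcr8 transcript, was likewise detected in 0 of 16 LV walls. Its mean spot signal was −0.69 at the lowest, 0.62 at the median and 1.23 at the highest in WT mice, and −1.33, −0.49 and 0.42 in Dgcr8+/- mice. The groups overlapped. The means differed by −0.93 signal units (exact permutation test, p = 0.0120, 1 of 3 such comparisons of the undetected arms). The median signal of the negative control spots differed between the same groups by 0.85 signal units in the opposite direction (exact permutation test, p = 0.0218), from 1.5 to 3.11 in WT and from 1.53 to 3.78 in Dgcr8+/- mice. The difference in miR-1306-5p was thus of about the size of the shift in the negative controls, whose part in it was not tested. Of its 480 spots, 68 (14.2%) were significantly above background and 3 were well above. Its probes did not give the same signal, since the first lay at −3.27 to 0.25 in WT and −2.51 to −0.38 in Dgcr8+/- mice, and the second at 1.38 to 3.31 and −0.80 to 1.91 signal units.

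MiR-1306-3p, the other arm of that hairpin, came closer to detection. Its mean spot signal was 6.06 at the lowest, 8.67 at the median and 10.03 at the highest in WT mice. In Dgcr8+/- mice it was 5.96, 7.84 and 16.5, with the highest value in replicate 5. The groups overlapped, replicate 5 alone stood above the WT range, and the means differed by −0.05 signal units (exact permutation test, p = 0.982). That array was the 1 on which the software detected this miRNA, with a total signal of 9.51 and an error of 16.4% of it. Over all arrays 434 of its 480 spots (90.4%) were significantly above background, but 12 (2.5%) were well above it.

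After quantile normalization, the log2 signal of miR-1306-3p was 2.62, 2.96 and 3.20 in WT mice at the lowest, median and highest, and 2.83, 3.16 and 4.16 in Dgcr8+/- mice. The difference of the means was 0.28 (exact permutation test, p = 0.0598), which did not pass 0.05, and the filter on detection left it out of limma. Without Dgcr8+/- replicate 5 the difference was 0.15 (exact permutation test, p = 0.122). On slide 1, which held that array, the means differed by 0.67, and on slide 2 by 0.01. Without normalization between arrays the difference was −0.06 (exact permutation test, p = 0.758), so no direction can be given for the arm that derives from the Dgcr8 transcript.

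Between Dgcr2 and Hira, genes of the corresponding mouse interval, the gene table places 4 miRNA genes, namely Mir6366, Mir1306, Gm24572 (which encodes miR-3618) and Mir185. They give 7 mature miRNAs on the array, of which 2 were tested, miR-185-5p and miR-6366. Gm24572 also lies within Dgcr8, 232 bases from Mir1306, and miR-3618-5p and miR-3618-3p were detected in 0 LV walls. Mir6366, 119068 bases from Mir1306 and in no host gene of the table, gave the brightest signal of all miRNAs on all 16 arrays. Because quantile normalization gives the brightest probes the same value on every array, its normalized level carries no genotype difference. Before normalization its log2 signal was 17.86 to 18.12 in WT and 17.82 to 18 in Dgcr8+/- mice, which overlapped, and the means differed by −0.04 (exact permutation test, p = 0.318). The log2 ratio of miR-185-5p to miR-6366 differed between genotypes by −0.97 (exact permutation test, p = 0.000155), with values of −9.83 to −9.34 in WT and −11.29 to −10.26 in Dgcr8+/- mice. MiR-6366 varied little between arrays, so this ratio mostly restates the fall of miR-185-5p without normalization (−1.0) and is not separate evidence.

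On chromosome 16 as a whole, by the gene table, which matched 1864 of the 1881 names, 45 other mature miRNAs were on the array, those of the interval included. Of these, 28 were detected in 0 mice and 14 were tested. Among the tested, 5 were lower and 5 higher in Dgcr8+/- mice, beside 27.9% lower and 28.3% higher over all tested, and the median log2 fold change was 0.01 beside 0.04. Without normalization 8 were lower and 0 higher, beside 293 and 0 of all 495 tested, with a median of −0.41 beside −0.39. Those that fell were miR-6540-5p with −1.34, miR-130b-3p with −0.89, miR-301b-3p with −0.62, miR-28a-5p with −0.52 and miR-99a-5p with −0.12. MiR-130b-3p and miR-301b-3p are miRNAs of 1 cluster. MiR-6540-5p was detected on 8 arrays, miR-301b-3p on 10, miR-28a-5p on 14, miR-130b-3p on 15 and miR-99a-5p on 16. Those that rose after quantile normalization were miR-1224-5p, a mirtron, with 0.53, miR-690 with 0.41, miR-3081-5p with 0.35, miR-484 with 0.31 and let-7c-1-3p with 0.22. All of those named were past an adjusted p of 0.05 from limma. Without normalization miR-130b-3p, miR-301b-3p and miR-28a-5p were also past it. On that scale miR-1224-5p had 0.05 (adjusted p = 0.732 from limma) and miR-484 −0.11 (adjusted p = 0.396 from limma).

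The miRNAs linked with 22q11 models or with dopamine receptors were 5 in number, all tested, and 4 were lower, beside 27.9% over all tested. The median log2 fold change of the 5 was −0.60 beside 0.04 over all tested. MiR-25-3p, studied beside miR-185 for the targeting of Serca2, had −0.43 (adjusted p = 0.000331 from limma), and its log2 signal fell from a mean of 7.25 to 6.82. MiR-338-3p, studied for its targeting of the dopamine receptor Drd2, had −0.11 (adjusted p = 0.227 from limma), and without normalization −0.64 (adjusted p = 0.00136 from limma). The other 3 were miR-674-3p with −0.65, miR-382-3p with −0.63 and miR-153-5p with −0.60, all past an adjusted p of 0.05 from limma. The study picked these 3 on these arrays as lowered miRNAs predicted to target Drd1. Their direction, and the count and median of the list that holds them, are therefore not independent evidence. Among 15 Dgcr8-independent miRNAs, 8 were tested. Of these, 0 were lower and 5 higher, beside 27.9% lower and 28.3% higher over all tested. The median was 0.25 beside 0.04 over all tested. Their direction depended on the scaling. Without normalization 2 were lower and 0 higher, beside 293 and 0 of all 495 tested, with a median of −0.14 beside −0.39. With labelling spike-in scaling 1 was lower and 0 higher, beside 264 and 0, with a median of −0.14 beside −0.38. The deposited table gave 0 lower and 0 higher, beside 276 and 0, with a median of −0.16 beside −0.43.

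After each genotype's mean was subtracted, the 5 tested miRNAs whose log2 signal followed miR-185-5p most closely over the 16 mice were miR-544-5p (r = 0.908), miR-204-5p (r = 0.893), miR-425-5p (r = 0.873), miR-380-3p (r = 0.863) and miR-382-3p (r = 0.862). The median r of all 494 other tested miRNAs with miR-185-5p was 0.09 and the upper quartile was 0.595. These correlations describe values that share an array and its normalization. All 5 were lower in Dgcr8+/- mice, beside 27.9% lower over all tested, with log2 fold changes from −0.75 for miR-544-5p to −0.29 for miR-204-5p.

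Markers of the cell types of the LV wall were detected, among them miR-34b-5p and miR-34c-5p of multiciliated cells and miR-124-3p of neurons. Of 5 tested multiciliated-cell markers 0 were lower and 0 higher. The log2 of their summed signal was 9.09 to 10.33 in WT and 9.77 to 10.62 in Dgcr8+/- mice. MiR-449b and miR-449c-5p were detected on 0 arrays. MiR-185 is abundant in red blood cells. Of 3 tested red blood cell markers, 1 was lower, miR-486a-5p, with −0.66 (adjusted p = 0.000599 from limma), while miR-451a had −0.12 (adjusted p = 0.359 from limma) and miR-144-3p −0.15 (adjusted p = 0.217 from limma). MiR-486a-5p was detected on 11 arrays, with a mean log2 signal of 4.05 in WT and 3.39 in Dgcr8+/- mice. MiR-451a and miR-144-3p were detected on 16. The log2 of their summed signal, most of it from miR-451a, was 9.06 to 9.80 in WT and 8.87 to 9.51 in Dgcr8+/- mice, with overlap. MiR-144-5p was detected on 0 arrays, and the part of the red blood cell markers in the fall of miR-185-5p was not tested. In the choroid plexus list 1 of 2 was lower, miR-204-5p (−0.29, adjusted p = 0.0136 from limma). The log2 of the summed signal of this list was 9.06 to 9.52 in WT and 8.66 to 9.29 in Dgcr8+/- mice, with neither marker at the floor. The part of these cells in the result was not tested either. The counts for marker lists are to be read beside the 27.9% lower and 28.3% higher over all tested miRNAs, and they changed with the scaling. Without normalization 0 markers of any list were higher, beside 293 lower and 0 higher of all 495 tested miRNAs. Lower were 3 of 3 red blood cell, 2 of 2 choroid plexus, 4 of 4 neuronal and 4 of 4 microglial and immune markers. Endothelial and mural markers had 2 of 4 lower, oligodendrocyte markers 1 of 3 and multiciliated-cell markers 0 of 5. After quantile normalization, of 4 neuronal markers 1 was lower and 1 higher. Of 3 oligodendrocyte markers 0 were lower and 1 higher. Of 4 endothelial and mural markers 0 were lower and 2 higher, and of 4 tested markers of microglia and immune cells 1 was lower and 1 higher.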

How the data were processed

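The authors hybridised LV wall RNA of 16 mice to 1-colour Agilent miRNA arrays and deposited each array's scanner output, with spot intensity after the background correction of Feature Extraction (10.7.3.1 per the file headers, 10.5.1.1 per the submitters' processing notes) and no normalization between arrays. The deposited table of intensity per miRNA equals the software's total gene signal. Here, control spots and outlier-marked spots were dropped, the 7 to 30 spots of a probe averaged, and the 4415 probes quantile-normalized, as in the methods. The mean over the probes of each miRNA was taken, values under 1 were set to 1, and log2 was taken. MiRNAs detected on at least 8 arrays were compared with limma 3.58.1 in R 4.3.3, Benjamini-Hochberg adjusted at 0.05. The code was tested on simulated data. Differences are Dgcr8+/- minus WT. The number of arrays limits the precision.

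The members and lists were chosen with earlier results of these data known. By rule, the text names the members, other miRNAs between Dgcr2 and Hira, those sharing a seed, the 5 that follow miR-185-5p most closely, and lists of chromosome 16, 22q11-model and Drd1, Dgcr8-independent and cell type marker miRNAs. Alternatives covered background correction, scaling, floor, filter, blocks and left-out arrays. The files give mm9 as their build; sequences, positions and neighbours came from RefSeq on GRCm38.p6, matched by name only, and no coordinate was carried between builds. The mature sequence of miR-185-5p was not used here.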

Additional observations from a re-analysis of the deposited data

Results flagged for a closer look

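In 3 of 6 groups of 8 mice, over the members and the other miRNAs between Dgcr2 and Hira whose normalized log2 values varied, 1 array lay farther from the rest than Dixon's 95% critical value. Chance marks about 1 in 20 groups of untied values. In the groups of miR-1306-5p and miR-6366 the other 7 values were tied, at the floor or by quantile normalization, so any deviation is marked there and that rate does not apply. For miR-1306-3p, Dgcr8+/- replicate 5 had a log2 signal of 4.16, while the other Dgcr8+/- mice had 2.83 to 3.28. This was the 1 array on which miR-1306-3p was detected, and both of its probes were highest there, at 16.01 and 17.1 signal units. For miR-1306-5p, WT replicate 4 had 0.12 and the other WT mice were at the floor of 0, all undetected. For miR-6366, Dgcr8+/- replicate 2 had 17.97 and the other Dgcr8+/- mice 17.94, the value that quantile normalization gives to the brightest miRNA. The causes were not tested.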

How the results depend on the processing

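The fall of miR-185-5p passed its threshold under all 18 alternatives, with log2 fold changes of −1.0 to −0.36. Adjusted p-values from limma were up to 0.000193, and the alternative with the methods' t-test had an unadjusted p of 2.52e-07. With each array left out in turn the log2 fold change was −0.49 to −0.44. The groups did not overlap under any of the 11 alternatives that change the values. The hybridisation spike-in reference was not among these 11, and with it the groups overlapped (−0.65, exact permutation test, p = 0.00979). The difference in miR-1306-3p was −0.065 with no normalization between arrays and −0.058 with labelling spike-in scaling, a reversed direction, and 0.47 when arrays were scaled to the 75th percentile of probes detected everywhere (exact permutation test, p = 0.00202), which passed 0.05. With each array left out in turn it was 0.15 to 0.34, and it passed 0.05 by exact permutation without WT replicate 2 (0.32), Dgcr8+/- replicate 2 (0.32), Dgcr8+/- replicate 6 (0.32) or Dgcr8+/- replicate 8 (0.34). Over all tested miRNAs, limma called 293 lower and 0 higher without normalization, 264 lower and 0 higher with labelling spike-in scaling, and 276 lower and 0 higher with the deposited table, where the median log2 fold change was −0.39, −0.38 and −0.43. At an unadjusted p below 0.05 the higher miRNAs in these settings numbered 0, 0 and 2 from limma and 2, 0 and 3 from the methods' t-test. With that 75th percentile scaling, 126 were lower and 210 higher (37.5% lower, against 49.6% as reported) and the median was 0.14. The methods' t-test at their thresholds gave 88 lower and 51 higher (63.3% lower), and with Benjamini-Hochberg adjustment in place of both that p threshold and the limit on fold change it gave 141 lower and 135 higher. With 1 array left out, 133 to 150 were lower and 126 to 170 higher. The labels do not say whether equal replicate numbers mark paired mice, and the values did not settle it. Of 8 pairs, 5 had a correlation of their deviations over 0.1 (range −0.14 to 0.50). Of 8 WT mice, 3 correlated best with their own number. With the replicate block the log2 fold change of miR-185-5p was −0.47 (adjusted p = 5.16e-05 from limma), with 140 lower and 147 higher miRNAs. The alternative without the arrays of extreme hybridisation spike-ins was chosen after seeing the data. The normexp correction used the median spot signal, not the mean. MiR-185-3p and miR-1306-5p, at the floor on nearly every array, have no normalized difference, and the comparison of the miR-185 arms was not run. Signals this near background limit all statements on those arms and on miR-1306-3p.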
